A study of Mus musculus with 8 samples.

Results

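In the mouse retina, 10 antioxidant and metal-binding genes were followed across 8 arrays from wild-type, heterozygous and homozygous Nxnl1 null animals: the glutathione peroxidases Gpx1, Gpx3 and Gpx4, glutathione reductase Gsr, both subunits of glutamate-cysteine ligase (Gclc and Gclm), haem oxygenase Hmox1, the quinone reductase Nqo1 and the metallothioneins Mt1 and Mt2. They were chosen by name, and every probe set that the platform annotation gives to one of these symbols alone was used. This gave 15 probe sets for 10 genes, of 45037 probe sets and 18193 named genes in all. Of the genes, 5 had 1 probe set each and the other 5 had 2.

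The study measured total RNA of retinas described as dissected free of the pigment epithelium, taken from BALB/c AJ mice (as the strain is labelled) on postnatal day 40. The mice were kept on 12 h of light and 12 h of dark. Of the arrays, 3 were labelled wild type (wt/wt), 2 heterozygous (ko/wt) and 3 homozygous null (ko/ko) for Nxnl1, a photoreceptor gene for a thioredoxin-like protein. A ninth sample, which the design text counts, was not analysed here. Whether each array stands for a separate animal is not labelled, and the p-values therefore measure only how far these samples spread, which may be technical. Values are RMA expression on the log2 scale, where a difference of 1 is a doubling, and the level of one probe set cannot be set against that of another.

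Nxnl1 went against the label on 2 arrays. Its brighter probe set (1425696_at) read 9.22, 8.87 and 8.65 on wild-type arrays 1 to 3, 8.65 and 6.75 on heterozygous arrays 1 and 2, and 6.13, 8.76 and 6.13 on homozygous arrays 1 to 3. The array labelled homozygous 2 was thus at the wild-type level and the one labelled heterozygous 2 was far below it. These 2, called here the arrays of uncertain label, were picked after the data had been seen, and the comparison of homozygous with wild type is given over all 8 arrays and without them. Rod photoreceptor markers, of which 8 of 10 were measured, averaged between 13.22 and 13.42 on the 8 arrays, so the labelled tissue was present on each. The arrays differed in a measure of RNA quality. It is the actin difference, the log2 signal of the 5' actin control probe set less that of the 3' one, which drops in degraded RNA. This was -1.81, -1.04 and -0.80 on wild-type arrays 1 to 3, -0.90 and -0.71 on heterozygous arrays 1 and 2, and -1.74, -0.69 and -1.26 on homozygous arrays 1 to 3.

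Glutathione is a tripeptide thiol that cells hold in high amounts. Glutamate-cysteine ligase makes its precursor, the peroxidases spend glutathione to reduce hydrogen peroxide and lipid peroxides, and glutathione reductase recovers the reduced form with NADPH. Hmox1 breaks down haem to biliverdin, carbon monoxide and iron, Nqo1 reduces quinones, and both are textbook targets of the transcription factor Nrf2 together with Gclc and Gclm. Metallothioneins are small cysteine-rich proteins that bind zinc and copper, and their genes are switched on by the zinc sensor Mtf1 and by glucocorticoids. Photoreceptors carry much polyunsaturated lipid and use much oxygen, which is why these defences are studied in the retina.

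The promoters of Mt1 and Mt2, neighbours on chromosome 8, are shown because these genes varied together over the arrays, and that of Gpx3 because it had the largest genotype difference of the 15 probe sets. Each is a RefSeq window of 250 bases before to 50 bases after the transcription start, on the plus strand of GRCm38.p6, at chr8:94178839-94179138 for Mt1, chr8:94172368-94172667 for Mt2 and chr11:54902604-54902903 for Gpx3. Capitals mark matches on either strand to the metal response element cores TGCACNC and TGCGCNC or to the antioxidant response element core TGACNNNGC.
Mt1: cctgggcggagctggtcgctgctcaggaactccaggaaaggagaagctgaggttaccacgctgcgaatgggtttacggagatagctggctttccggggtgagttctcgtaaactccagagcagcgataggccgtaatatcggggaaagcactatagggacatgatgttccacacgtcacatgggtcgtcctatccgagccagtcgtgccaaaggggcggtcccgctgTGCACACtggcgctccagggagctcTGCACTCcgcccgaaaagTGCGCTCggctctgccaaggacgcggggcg
Mt2: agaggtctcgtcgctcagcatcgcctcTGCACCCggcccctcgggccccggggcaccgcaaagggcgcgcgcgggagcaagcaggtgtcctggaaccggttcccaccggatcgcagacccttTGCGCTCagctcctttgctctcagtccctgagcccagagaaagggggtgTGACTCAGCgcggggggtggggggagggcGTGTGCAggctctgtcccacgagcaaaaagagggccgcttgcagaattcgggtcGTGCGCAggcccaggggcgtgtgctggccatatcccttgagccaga
Gpx3: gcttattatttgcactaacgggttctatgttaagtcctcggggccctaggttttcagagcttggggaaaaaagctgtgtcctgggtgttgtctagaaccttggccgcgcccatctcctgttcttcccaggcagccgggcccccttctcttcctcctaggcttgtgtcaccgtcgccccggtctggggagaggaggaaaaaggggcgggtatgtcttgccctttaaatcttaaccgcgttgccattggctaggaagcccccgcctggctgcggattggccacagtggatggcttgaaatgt
The Mt1 window held 3 metal element cores and no antioxidant core, and the Mt2 window held 4 metal element cores and 1 antioxidant core. The Gpx3 window held neither. Of 32851 mouse promoter windows of this length, 25.7% held a metal element core, 2.0% held at least 3 and 12.4% held an antioxidant core. Windows were at hand for 7 of the 10 genes. That of Gclm held 3 metal element cores and 1 antioxidant core, which overlapped one of them, and those of Gpx1, Gpx4 and Nqo1 held no match. A match is a run of letters and not a shown binding site.

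No member was called as changed between genotypes at an adjusted p of 0.05 (limma, Benjamini-Hochberg over all probe sets). The member count was 0 of 15 for homozygous against wild type, heterozygous against wild type and homozygous against heterozygous, where the share of all 45037 probe sets called was 0 percent in each. The probe sets of Nxnl1 itself were thus not called either, so a lack of calls does not show that a member was unchanged. At an unadjusted limma p of 0.05, 1 of 15 passed for homozygous against wild type, which was Gpx3, against 0.913% of all probe sets. None of 15 passed for heterozygous against wild type (1.15% of all), and 1 of 15, Hmox1, passed for homozygous against heterozygous (0.899% of all). The median log2 difference of the 15 probe sets was 0.03 for homozygous minus wild type, with 9 above 0, and -0.04 for heterozygous minus wild type, with 4 above 0, while the medians over all probe sets were 0.0054 and 0.0018. These directions rest on single arrays. With 1 array left out in turn, 5 of 15 (without wild-type array 3) to 12 of 15 (without wild-type array 1) lay above 0 for homozygous minus wild type. For heterozygous minus wild type it was 10 of 15 without wild-type array 1 or heterozygous array 1, and 9 of 15, with a median of 0.08, with the actin difference in the fit. Gpx3 apart, the 14 differences of homozygous minus wild type lay between -0.11 and 0.32. Without the 2 arrays of uncertain label they lay between -0.17 and 0.49, and the count for homozygous against wild type stayed at 0 of 15 adjusted and 1 of 15 unadjusted, again Gpx3, against 2.01% of all probe sets at the unadjusted threshold. Gpx3 did not pass the unadjusted threshold without wild-type array 2 or 3, either heterozygous array, or homozygous array 1 or 3, in a fit to the wild-type and homozygous arrays alone, or without the 2 arrays of lowest actin difference. With array weights 3 of 15 passed it, Gpx3, Gclm and Gpx4, against 12.6% of all probe sets, and in an ordinary test without moderation Hmox1 passed in place of Gpx3, against 1.82%.

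**Figure D1:**
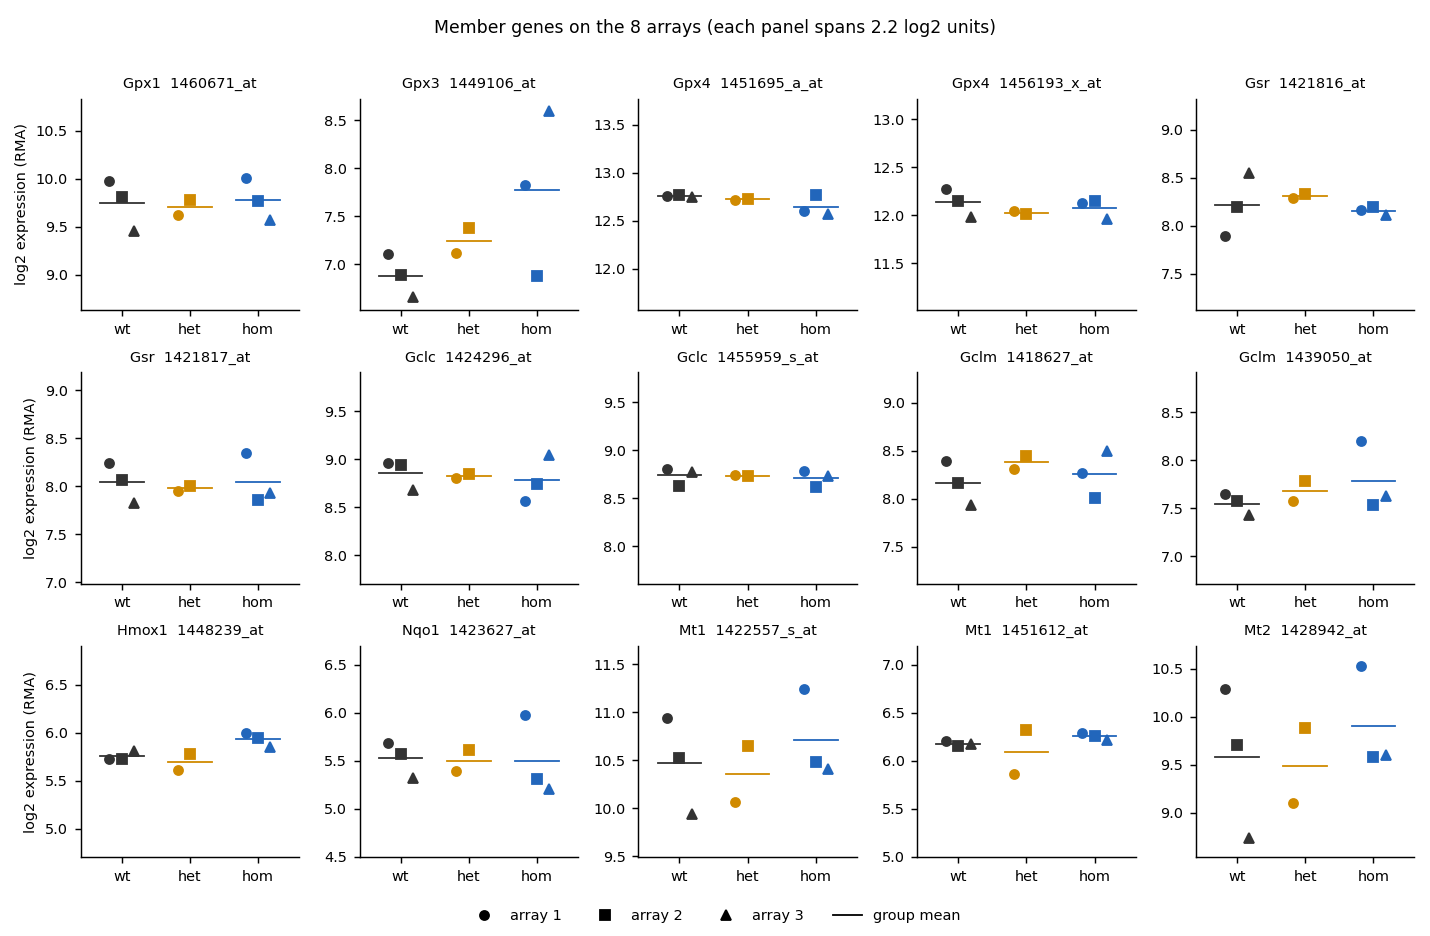
Log2 expression (RMA) of the 15 probe sets of the 10 genes, one panel each, with a point per array, the array number as the symbol and a line at the group mean (wt, wild type, n = 3; het, heterozygous, n = 2; hom, homozygous, n = 3). Every panel spans the same log2 range; Gpx3, Mt1 (1422557_s_at) and Mt2 spread the most, and Gpx4 (1451695_a_at) and Gclc (1455959_s_at) the least.

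Gclc encodes the catalytic subunit of glutamate-cysteine ligase. Its probe set 1424296_at ranged from 8.56 on the array labelled homozygous 1 to 9.05 on homozygous 3, and 1455959_s_at from 8.61 to 8.81. The homozygous group differed from wild type by -0.08 (SE 0.14) and -0.03 (SE 0.09), and the 95% intervals of the limma fit ran from -0.40 to 0.25 and from -0.24 to 0.18. Both intervals leave out a doubling or a halving.

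Gclm, the modifier subunit that makes the ligase more efficient, read 8.40, 8.17 and 7.94 in wild type at probe set 1418627_at. Heterozygous arrays 1 and 2 read 8.32 and 8.44, and homozygous arrays 1 to 3 read 8.27, 8.01 and 8.50. The groups overlapped, and homozygous minus wild type came to 0.09 (SE 0.16). The second probe set, 1439050_at, read 7.65, 7.58 and 7.42 on wild-type arrays 1 to 3, 7.57 and 7.79 on heterozygous arrays 1 and 2, and 8.20, 7.53 and 7.63 on homozygous arrays 1 to 3. Here 1 array, homozygous 1, stood above the 7 others and set the difference of 0.24 (SE 0.18), which was 0.03 without it and 0.37 (SE 0.19) without the 2 arrays of uncertain label.

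Gsr, the reductase, had 2 probe sets that did not run alike over the arrays. At 1421816_at it read 7.90, 8.19 and 8.56 on wild-type arrays 1 to 3, 8.29 and 8.33 on heterozygous arrays 1 and 2, and 8.16, 8.20 and 8.12 on homozygous arrays 1 to 3. At 1421817_at it read 8.24, 8.06 and 7.82 on wild-type arrays 1 to 3, 7.95 and 8.004 on heterozygous arrays 1 and 2, and 8.35, 7.86 and 7.93 on homozygous arrays 1 to 3. Wild-type array 3 was the highest of all at the first probe set and the lowest at the second. Over the 8 arrays the probe sets had a Pearson r of -0.625 (exact permutation p = 0.097) and a Spearman rho of -0.571 (exact permutation p = 0.151), with adjusted values of 0.199 and 0.181 over the 6 relations computed. Without wild-type arrays 1 and 3 the Pearson r was -0.199, so the negative value rests on those arrays. Neither probe set differed between homozygous and wild type beyond its error, at -0.06 (SE 0.15) for 1421816_at and 0.0029 (SE 0.16) for 1421817_at.

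Gpx1, the cytosolic and mitochondrial peroxidase, read between 9.46 on wild-type array 3 and 10.01 on the array labelled homozygous 1. Its groups overlapped, with 9.74 ± 0.26 (SD, n = 3) for wild type and 9.78 ± 0.22 (SD, n = 3) for homozygous arrays, a difference of 0.03 (SE 0.16). Gpx4, which reduces lipid peroxides within membranes and is the peroxidase that restrains ferroptosis, was among the steadiest transcripts. Its probe set 1451695_a_at had an SD of 0.08 over the 8 arrays, at percentile 7.9 of all probe sets. It read 12.75, 12.77 and 12.74 on wild-type arrays 1 to 3, 12.72 and 12.72 on heterozygous arrays 1 and 2, and 12.60, 12.77 and 12.57 on homozygous arrays 1 to 3. Both heterozygous arrays lay below every wild-type array, by less than 0.1, and the arrays labelled homozygous 1 and 3 lay lower still. Homozygous minus wild type was -0.11 (SE 0.09), with a 95% interval from -0.31 to 0.095, and without the 2 arrays of uncertain label it was -0.17. The second Gpx4 probe set, 1456193_x_at, whose suffix marks probes that may bind other transcripts, differed by -0.06 (SE 0.11).

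Gpx3, the secreted peroxidase best known from plasma and kidney, showed the largest difference of the 15 probe sets. It read 7.10, 6.89 and 6.65 on wild-type arrays 1 to 3, 7.11 and 7.38 on heterozygous arrays 1 and 2, and 7.83, 6.88 and 8.59 on homozygous arrays 1 to 3. The arrays labelled homozygous 3, homozygous 1 and heterozygous 2 were the 3 highest of the 8, and homozygous 2 lay among the wild-type arrays, so the homozygous and wild-type groups overlapped. Both heterozygous arrays lay above every wild-type array, the first by 0.01 or less. The group means were 6.88 ± 0.22 (SD, n = 3), 7.24 ± 0.19 (SD, n = 2) and 7.77 ± 0.86 (SD, n = 3).

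For Gpx3, homozygous minus wild type was 0.89 (SE 0.37), a 1.85-fold higher level, with a 95% interval from 0.04 to 1.73 (limma unadjusted p = 0.0418, adjusted p = 0.9999). It rested on single arrays: it was 0.47 without homozygous 3 and 1.33 without homozygous 2. Without the 2 arrays of uncertain label it was 1.33 (SE 0.26, limma adjusted p = 0.976), a value to which that choice of arrays contributes. The heterozygous group differed from wild type by 0.36 (SE 0.41) and the homozygous group from the heterozygous by 0.52 (SE 0.41), a value that ran from 0.11 without homozygous array 3 to 0.97 without homozygous array 2. With array weights, homozygous minus wild type was 1.41 (SE 0.26, limma unadjusted p = 0.000411, adjusted p = 0.284). That fit counts the arrays unequally and is no independent support. No weighted fit was run without homozygous array 3, the highest of the 8. Without that array the unweighted difference was 0.47. With the actin difference as a covariate the homozygous difference was 0.88 (SE 0.30), close to the value without it.

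Transcripts of the lens were uneven over the same arrays. The mean of the 12 lens markers, all measured, read 7.65, 6.05 and 5.41 on wild-type arrays 1 to 3, 5.56 and 7.62 on heterozygous arrays 1 and 2, and 8.65, 5.34 and 7.33 on homozygous arrays 1 to 3, and 11 of 12 were higher in the homozygous group, with a median log2 difference of 0.62. The 3 arrays highest in Gpx3 all had a lens mean of at least 7.33, but wild-type array 1 had 7.65 with a Gpx3 level of 7.10. The 14 markers of ciliary body, iris and cornea averaged 5.88 to 6.07 in wild type, 5.87 to 5.90 in the heterozygous group and 5.88 to 6.22 in the homozygous group, and the 14 markers of the pigment epithelium 7.76 to 8.26, 7.59 to 7.73 and 7.79 to 8.18. Of the pigment epithelium markers, 4 of 14 were higher in the homozygous group (median -0.11) and 2 of 14 in the heterozygous group (median -0.47) than in wild type. Though the retinas were described as free of that layer, Rpe65 read 9.16 to 10.48 over the arrays, Rgr 9.63 to 10.74 and Ttr 11.99 to 13.11. Tyr read 4.61 to 5.12 and Slc26a4 3.65 to 4.73. As levels of different probe sets cannot be compared, these values do not give the amount of that layer. Of the 14 markers of microglia and macrophages, 11 were higher in the homozygous group, with a median log2 difference of 0.13, and their mean was highest on homozygous array 1 (5.87) and heterozygous array 2 (5.85), with 5.48 to 5.71 in wild type. Of the 13 vessel markers, 11 were higher, with a median of 0.11 and a mean of 6.29 to 6.31 in wild type, 6.30 to 6.43 in the heterozygous group and 6.29 to 6.68 in the homozygous group. The mean of the 12 Müller glia markers was highest on homozygous arrays 1 and 3 (10.77 and 10.71) and heterozygous array 2 (10.71), the 3 arrays highest in Gpx3. It was 10.57 to 10.70 in wild type, where array 1 (10.703) was almost level with heterozygous array 2 (10.705). The markers did not all follow this order, as Rlbp1 was lowest of all on homozygous array 3 (11.81). Of these markers, 7 of 12 were higher in the homozygous group, with a median of 0.02. The 6 measured astrocyte markers averaged 7.66 to 8.09 in wild type, 7.71 to 7.80 in the heterozygous group and 7.76 to 8.04 in the homozygous group. The part of these tissues and cells in the Gpx3 difference was not tested. In bulk tissue, more cells of a type and more RNA per cell cannot be told apart.

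**Figure D2:**
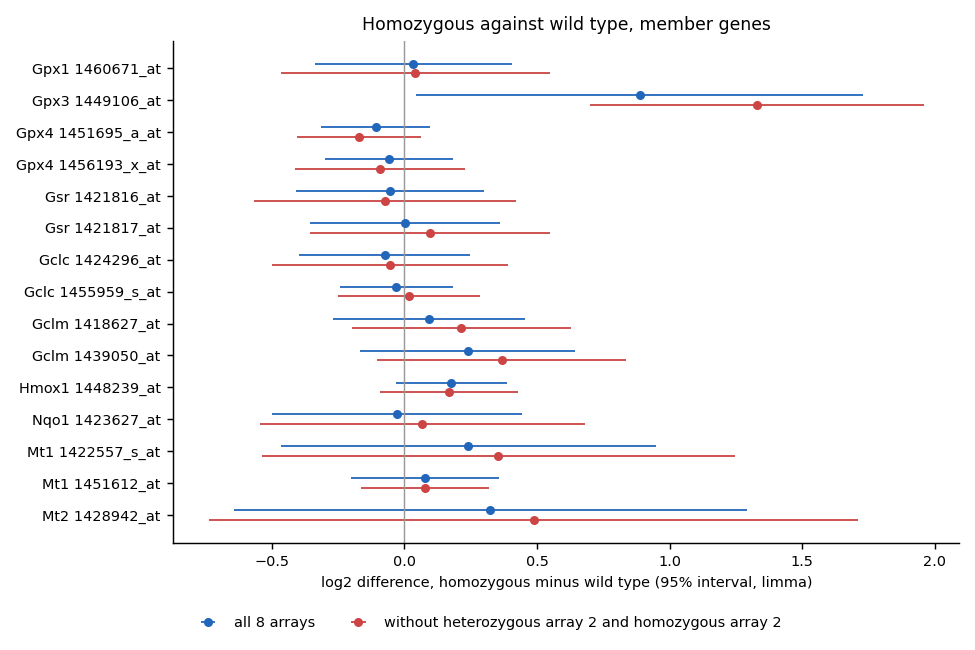
Log2 difference of homozygous minus wild type for each of the 15 probe sets, with the 95% interval of the limma fit, over all 8 arrays (blue) and without the arrays labelled heterozygous 2 and homozygous 2 (red). Gpx3 lies apart at 0.89 and 1.33, and the intervals of the 14 other probe sets include 0 in both fits.

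Hmox1, the inducible haem oxygenase, read 5.73, 5.72 and 5.81 on wild-type arrays 1 to 3, 5.61 and 5.78 on heterozygous arrays 1 and 2, and 5.996, 5.95 and 5.85 on homozygous arrays 1 to 3. Every homozygous array lay above every wild-type and heterozygous array, the one labelled homozygous 2 included. The means were 5.75 ± 0.05 (SD, n = 3) for wild type and 5.93 ± 0.08 (SD, n = 3) for homozygous arrays, a difference of 0.18 (SE 0.09) or 1.13-fold, which did not pass the test (limma unadjusted p = 0.0884, adjusted p = 0.9999). It stayed between 0.14 and 0.22 when single arrays were left out and was 0.17 (SE 0.11) without the 2 arrays of uncertain label. Against the heterozygous group the homozygous group was higher by 0.24 (SE 0.10, limma unadjusted p = 0.049, adjusted p = 1), a comparison that shares the homozygous arrays with the first. That value was 0.15 without heterozygous array 1 and 0.32 without heterozygous array 2. The heterozygous group differed from wild type by -0.06 (SE 0.10).

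Nqo1 read 5.69, 5.58 and 5.32 on wild-type arrays 1 to 3, 5.39 and 5.61 on heterozygous arrays 1 and 2, and 5.98, 5.31 and 5.21 on homozygous arrays 1 to 3. The homozygous group held both the highest and the lowest of the 8 values, and the difference from wild type was -0.03 (SE 0.21). Nqo1, Hmox1 and the Mt1 probe set 1451612_at averaged below 6.19, the median of all probe sets, and whether they were above background is unknown, as no detection calls were read.

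Mt1 was measured by probe set 1422557_s_at at 10.95, 10.52 and 9.94 on wild-type arrays 1 to 3, 10.07 and 10.65 on heterozygous arrays 1 and 2, and 11.24, 10.48 and 10.41 on homozygous arrays 1 to 3. Mt2 read 10.29, 9.71 and 8.74 on wild-type arrays 1 to 3, 9.10 and 9.88 on heterozygous arrays 1 and 2, and 10.53, 9.58 and 9.60 on homozygous arrays 1 to 3. For both genes the array labelled homozygous 1 was highest, wild-type array 1 next and wild-type array 3 lowest, and all groups overlapped. The homozygous difference was 0.24 (SE 0.31) for Mt1 and 0.32 (SE 0.42) for Mt2, within the spread of the arrays of one genotype, and the 95% interval for Mt2, from -0.64 to 1.29, is too wide to exclude a doubling.

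The metallothioneins moved together from array to array. Their Pearson r over the 8 arrays was 0.990 (exact permutation p = 9.92e-05, adjusted 0.000595) and their Spearman rho 0.976 (exact permutation p = 0.000397, adjusted 0.00238), and r was 0.995 without homozygous array 1 and wild-type array 3. The SD over the 8 arrays was 0.43 for Mt1 and 0.58 for Mt2, at percentiles 95.9 and 98.6 of all probe sets, and that of Gpx3 was 0.63 at percentile 99.0. The mean of the lens markers was highest on homozygous array 1, wild-type array 1 and heterozygous array 2 (8.65, 7.65 and 7.62). These arrays were also the highest in Mt1 and Mt2, in the same order. Homozygous array 2 had the lowest lens mean (5.34) but not the lowest Mt1 or Mt2 level. The part of lens tissue in the metallothionein pattern was not tested. The suffix of the Mt1 probe set marks probes shared by several transcripts, so part of its signal may come from related transcripts. The second Mt1 probe set, 1451612_at, spread less, at 6.21, 6.15 and 6.17 on wild-type arrays 1 to 3, 5.86 and 6.32 on heterozygous arrays 1 and 2, and 6.29, 6.26 and 6.21 on homozygous arrays 1 to 3. All 3 homozygous arrays lay above wild type there, by a mean of 0.08 (SE 0.12). Its Pearson r with the first Mt1 probe set was 0.598 (exact permutation p = 0.0997, adjusted 0.199). The pairs of probe sets for Gpx4, Gclc and Gclm had Pearson r of 0.426, -0.178 and 0.378 (exact permutation p of 0.298, 0.677 and 0.351).

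Groups did not overlap for 2 of the 15 probe sets in homozygous against wild type, Hmox1 and Mt1 1451612_at, where 4.47% of all probe sets did not overlap. In heterozygous against wild type they did not overlap for 2 of 15, Gpx3 and Gpx4 1451695_a_at, where the share of all probe sets was 14.2%.

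The members were also set against RNA quality. In a fit with genotype and the actin difference together, a slope is the log2 change per unit of that difference. A negative slope thus means a higher reading on arrays with a lower actin difference. Whether that lower difference came from degraded RNA was not tested. None of 15 member probe sets passed the adjusted threshold, against 10.3% of all probe sets, and 5 of 15 passed the unadjusted one, against 27.8%. All 5 were negative. Mt2 had a slope of -1.03 (SE 0.32, limma adjusted p = 0.0700), Mt1 1422557_s_at of -0.73 (SE 0.24, limma adjusted p = 0.0868) and Gsr 1421817_at of -0.40 (SE 0.12, limma adjusted p = 0.0597), and the others were Nqo1 at -0.43 (SE 0.18) and Gclm 1439050_at at -0.38 (SE 0.15). With genotype left out of the fit, 3 of 15 passed the adjusted threshold, against 15.5% of all probe sets: Gsr 1421817_at, Mt1 1422557_s_at and Mt2. The other Gsr probe set had a slope of 0.31 (SE 0.14), opposite in sign. Hmox1 had a slope of 0.02 (SE 0.11) and Gpx3 of -0.64 (SE 0.35), which was -0.02 without homozygous array 2. The Gpx3 slope was -0.92 without homozygous array 1. It passed the unadjusted threshold there and without homozygous array 3. The member slopes depended on single arrays. Without wild-type array 1, 2 of 15 passed the unadjusted threshold, Gsr and Gclm, against 8682 of all 45037 probe sets. Mt1, Mt2 and Nqo1 did not pass there. Without wild-type array 3 it was 3 of 15, Gsr, Mt2 and Gclm, against 11238 of all. Without homozygous array 3 it was 8 of 15, against 12604 of all. At the adjusted threshold, the count of slopes over all probe sets rests on single arrays too. Without wild-type array 1, 13 of all 45037 probe sets passed in place of 4653, and without homozygous arrays 1 or 2, or wild-type array 3, 1684, 534 and 2955 did.

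**Figure D3:**
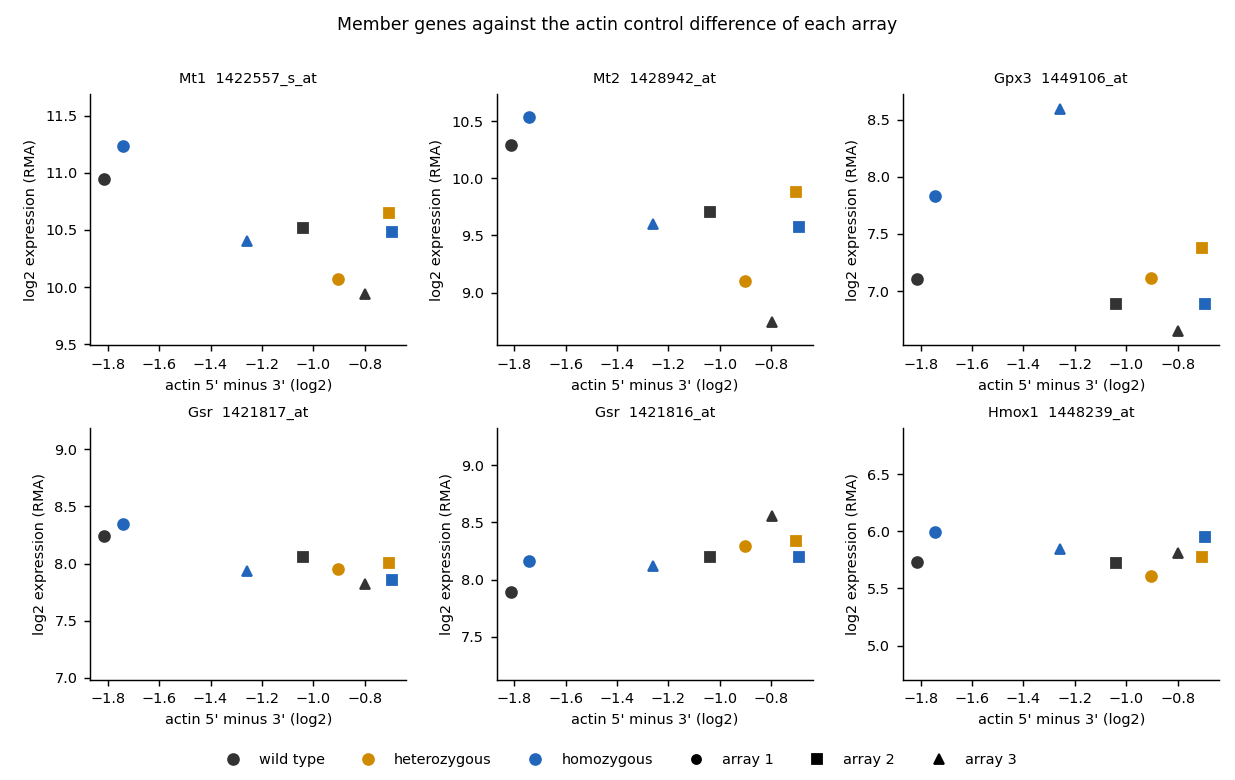
Log2 expression (RMA) of 6 member probe sets against the actin difference (5' less 3' control signal, log2), one point per array, coloured by genotype label with the array number as the symbol. Mt1, Mt2 and Gsr 1421817_at are highest on wild-type array 1 and homozygous array 1, at -1.81 and -1.74, while Gsr 1421816_at is lowest on wild-type array 1 and Hmox1 shows no such order.

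The wider pathways were read from 8 gene lists, each gene by its brightest probe set, and no gene of any list passed the adjusted threshold. Among the genes named below, Gpx5, Gpx6, Gsto2, Abcc4, Aldh3a1, Hp, Slc39a4, Slc30a10 and Sod3 averaged under 6.19, the median of all probe sets. Whether they were above background is unknown. Over all 18193 genes, 60.5% had a homozygous minus wild-type difference above 0 and the median was 0.02. In the list for glutathione synthesis, import and recycling, 17 of 22 measured genes lay above 0, with a median of 0.04. Its genes of smallest p were the amino acid carrier subunit Slc3a2 at 0.17, glutathione synthetase Gss at 0.15 and 5-oxoprolinase Oplah at 0.19. Of the 8 glutathione peroxidases, 3 lay above 0 and the median was -0.04, with Gpx3 the highest and Gpx5, Gpx6 and Gpx8 at -0.06, -0.03 and -0.07. Of 24 glutathione transferases, 19 lay above 0 with a median of 0.10, Gstp1 at 0.14, Gsto2 at 0.20 and Gstcd at 0.19 having the smallest p.

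Among 28 Nrf2 regulators and targets, 23 lay above 0 and the median was 0.06. The gene of smallest p was Abcc4, an exporter of organic anions, which read 5.20, 5.25 and 5.10 on wild-type arrays 1 to 3, 5.46 and 5.38 on heterozygous arrays 1 and 2, and 5.99, 5.29 and 5.56 on homozygous arrays 1 to 3. Every array of both mutant groups lay above wild type, homozygous array 2 by a small margin (5.29 against 5.25). Over all probe sets, 4.47% did not overlap for homozygous and 14.2% for heterozygous against wild type. The homozygous difference was 0.43 (SE 0.17, limma unadjusted p = 0.03, adjusted p = 0.9999), or 0.59 (SE 0.15) without the 2 arrays of uncertain label. As Abcc4 was picked by this p, its separation from wild type is in part a product of that choice. Aldh3a1, an aldehyde dehydrogenase abundant in cornea, differed by 0.17 and the glutathione conjugate exporter Abcc1 by 0.12. In the list for haem and iron, 16 of 23 genes lay above 0 with a median of 0.05, and Alas1, the first enzyme of haem synthesis, ferritin heavy chain Fth1 and the haemoglobin-binding Hp differed by 0.19, 0.17 and 0.18.

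Of 15 metallothionein and zinc genes, 9 lay above 0 with a median of 0.03, and the zinc carriers Slc39a14, Slc39a4 and Slc30a10 differed by 0.11, -0.10 and -0.10. Of 30 selenoprotein genes and factors of selenium insertion, 16 lay above 0 with a median of 0.02. Selenop, the plasma carrier of selenium, differed by 0.31, its receptor Lrp2 by -0.15 and Selenof by -0.11. Of 8 superoxide dismutases, catalase and peroxiredoxins, 5 lay above 0 with a median of 0.02, and the extracellular dismutase Sod3, Prdx2 and the mitochondrial Sod2 differed by 0.22, 0.10 and -0.06. Without the 2 arrays of uncertain label the list medians ran from -0.04 for the peroxidases to 0.13 for the Nrf2 list, beside 0.05 over all genes. In heterozygous against wild type they ran from -0.11 for the dismutase list to 0.0069 for the glutathione synthesis list, beside -0.0067 over all genes.

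**Figure D4:**
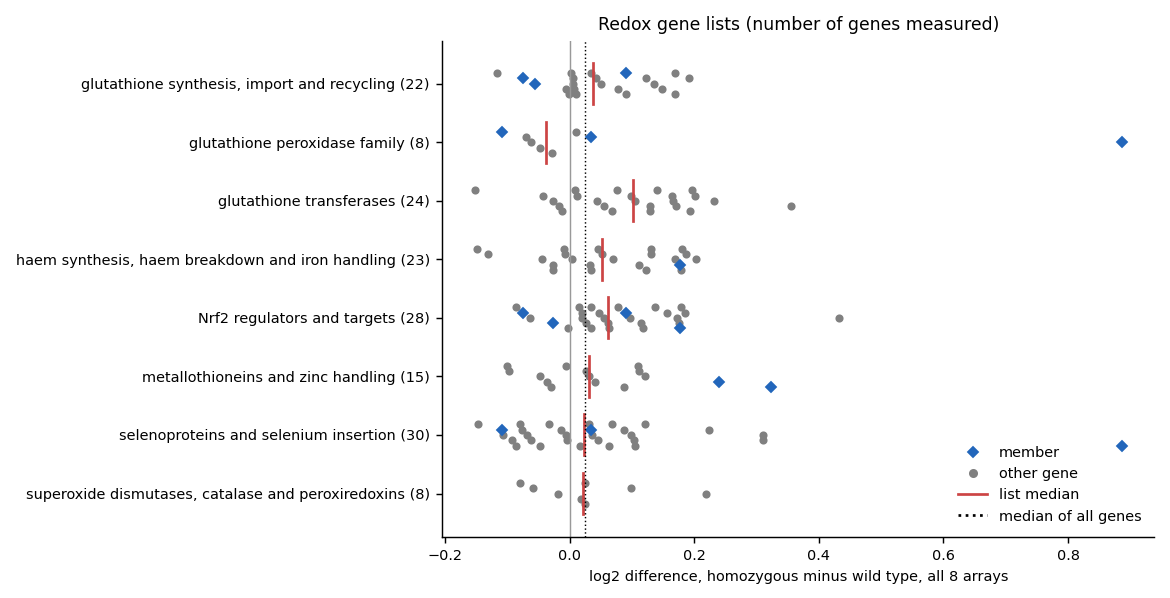
Log2 difference of homozygous minus wild type for each measured gene of the 8 lists (number measured in brackets), with the 10 member genes as blue diamonds, a red bar at each list's median and a dotted line at the median of all genes (0.02). Gpx3 at 0.89 appears in the peroxidase and selenoprotein rows, and the list medians run from -0.04 to 0.10.

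The genes whose pattern over the 8 arrays was most like that of 4 members were picked by Pearson r among 525 genes that were above the median level and had an SD of at least 0.3, with no test. For Gpx3 they were Myo5b (r = 0.893), a myosin motor of vesicle transport, Marveld3 (r = 0.891), a tight junction protein, and Hcls1 (r = 0.868), an actin regulator of blood cells. Homozygous arrays 1 and 3 gave Myo5b levels of 8.02 and 7.98, above the range of 7.05 to 7.69 of the 6 others. This follows from the way Myo5b was picked, as Gpx3 was highest on the same arrays. For Mt1 they were Mt2 (r = 0.990), Myadm (r = 0.960) and Cpq (r = 0.950), and for Mt2 they were Mt1 (r = 0.990), Myadm (r = 0.976) and Cpq (r = 0.958), so the same genes led for both. For Hmox1 the nearest were Syne3 (r = 0.729), Pea15a (r = 0.645) and Sgf29 (r = 0.607). All these genes share the 8 arrays and their RNA quality.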

How the data were processed

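Each sample was hybridised to 1 Affymetrix 3' array. The deposited table holds log2 expression values that, per the submitters' processing notes, the authors made with RMA, its version and options not given in the sources used here. RMA corrects background, quantile-normalizes the arrays and summarises each probe set, so a difference is relative to the bulk of transcripts. The number of arrays limits the precision. Of 45101 probe sets, 64 controls were left out. Symbols came from the platform annotation (34945 probe sets with 1 symbol, 932 with several, 9160 with none), updated through gene IDs for 34741.

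Group means of all 8 arrays were fitted with limma 3.58.1 in R 4.3.3 (5 residual degrees of freedom, eBayes, two-sided), with Benjamini-Hochberg adjustment over 45037 probe sets and a threshold of 0.05. The fit was tested on simulated data. SE is the moderated standard error. Named genes were all members, Nxnl1, up to 3 genes of smallest unadjusted p per list, and the 3 genes most like Gpx3, Hmox1, Mt1 and Mt2, uncharacterised transcripts skipped. Members and lists were chosen with earlier results of these data known. Alternatives were other normalizations, a filter on low values, other variance models, array weights, 2-group fits, a replicate block and leaving out arrays. Leaving out the 2 arrays whose Nxnl1 went against the label and fitting the actin or Gapdh control difference were chosen after seeing the data. Promoters came from RefSeq (GRCm38.p6), and protein sequences were not used here.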

Additional observations from a re-analysis of the deposited data

How the results depend on the processing

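No member probe set passed the adjusted threshold for any genotype comparison in any of the fits run. Over all probe sets the calls stayed at 0 in all fits but those without wild-type array 3, where 1 probe set passed for homozygous and for heterozygous against wild type (range 0 to 1 with single arrays left out), which was no member; array weights gave 5673 at an unadjusted p under 0.05 for homozygous against wild type in place of 411. The deviations of same-numbered arrays had correlations from -0.248 to 0.616, above 0.1 for wild-type with homozygous arrays 1 (0.616) and 2 (0.23) but not for the other 5 pairs, so the numbers were not taken as pairing; a fit with the replicate number as a block called 0 probe sets, and Gpx3 was 0.89 in it, against 1.41 with array weights. Small member differences turned sign. With array weights, Gpx1 was -0.16, Gsr 1421817_at -0.094, Gclc 0.038 and 0.065 at 1424296_at and 1455959_s_at, and Mt1 1422557_s_at -0.014. Gsr 1421817_at was also -0.0064 with quantile normalization repeated, -0.0031 with the actin covariate and -0.048 without the 2 arrays of lowest actin difference, where Gclc 1424296_at was 0.085. Without the 2 arrays of uncertain label Gclc 1455959_s_at was 0.018 and Nqo1 0.068. With single arrays left out, the homozygous differences ran from -0.11 to 0.15 for Gpx1, -0.13 to 0.011 for Gpx4 1456193_x_at, -0.21 to 0.11 and -0.15 to 0.10 for Gsr 1421816_at and 1421817_at, -0.21 to 0.036 and -0.085 to 0.018 for Gclc 1424296_at and 1455959_s_at, -0.030 to 0.22 for Gclm 1418627_at, -0.27 to 0.12 for Nqo1, -0.025 to 0.48 for Mt1 1422557_s_at and -0.097 to 0.68 for Mt2, and the heterozygous difference of Hmox1 from -0.14 to 0.025. The actin slope had 13 to 4515 calls over all probe sets with single arrays left out and 7002 without genotype in the model, and 0 to 2 and 3 calls among the members. Without genotype the slopes of Hmox1 and Mt1 1451612_at turned to -0.052 and -0.055, and with the Gapdh difference that of Mt1 1451612_at was -0.051. With single arrays left out, slopes ran from -0.013 to 0.15 for Gpx4 1451695_a_at, -0.27 to 0.098 for Gclc 1424296_at, -0.0099 to 0.1 for Hmox1 and -0.038 to 0.051 for Mt1 1451612_at. The cause of these turns was not tested.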
